A study of Homo sapiens with 9 samples.

Results

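The genes described here encode the machinery that brings proteins into mitochondria and folds, cuts or degrades them there: 37 genes chosen by name from 3 places, 12 of the outer membrane, 14 TIMM genes of the inner membrane and the space before it, and 11 of the matrix. Of these, 35 had a probe set annotated with exactly that symbol, out of 19775 genes with such a probe set, and 34 passed the filter on low signals, out of 11250 genes that did. TOMM6 and TOMM7 had no probe set of their own symbol. Counted with the outer membrane was also TOMM34, a cytosolic cofactor, and with the matrix DNAJC19, a J-protein of the inner membrane. TIMM23 was read by 1 probe set of its own symbol, with log2 signals of 5.52, 4.04 and 4.88 in Ctrl-sh, 1.79, 5.95 and 5.04 in Slc7a5-sh and 3.55, 4.28 and 5.41 in C-Myc-sh. Its mean lay below the filter level of 5.77, so these values gave no usable reading of the channel.

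Nearly all mitochondrial proteins are made in the cytosol and enter through the TOM complex of the outer membrane. From there beta-barrel proteins go to the SAM complex, carrier proteins travel with the small TIM chaperones to the TIM22 complex, and proteins with a presequence pass the TIM23 complex. A motor built around the matrix HSP70 pulls the latter inward, a peptidase cuts off the presequence, and chaperones and proteases keep the imported proteins in order. MYC is known to drive the growth of mitochondria together with cell growth.

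Expression was measured on 9 arrays of Daudi cells, a B-cell line from a Burkitt lymphoma, the tumour in which MYC is placed under the control of an immunoglobulin gene. Before the assay the cells were infected so as to express an shRNA, with 3 arrays for each target. Ctrl-sh carried the control shRNA, Slc7a5-sh an shRNA for SLC7A5, the light chain of a transporter of large neutral amino acids, and C-Myc-sh, the positive control of the design, an shRNA for MYC. All 3 groups went through 48 h of puromycin, and how many shRNA sequences served each target is not given in the sources used here. The arrays are labelled as biological replicates, but no label tells whether the infections were separate; p-values here measure only the spread between these arrays, which may be technical.

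All values are log2 signals of a probe set on an array. The array medians lay between 6.05 and 6.26, and within a group the arrays correlated with r of 0.972 to 0.977, taken over genes that are no replicates of each other. MYC was at 13.16, 13.26 and 13.24 in Ctrl-sh, 12.90, 12.79 and 12.93 in Slc7a5-sh and 12.12, 12.14 and 12.13 in C-Myc-sh, so it fell in both knockdowns (log2 changes -0.35 and -1.09; limma adjusted p = 0.000381 and 4.70e-10). SLC7A5 fell as well in both (-0.32 and -0.41; limma adjusted p = 0.00414 and 0.000186). All 7 measured B-cell markers passed the filter, as did 2 of 8 T and NK cell markers (CD3E and CD4), 0 of 5 myeloid and 4 of 8 epithelial and fibroblast markers (KRT8, KRT18, COL1A1 and DCN). The summed linear signal of the B-cell markers was 44700 to 47135 in Ctrl-sh, 38836 to 42869 in Slc7a5-sh and 45860 to 49790 in C-Myc-sh. The other lists summed to 377 to 407, 280 to 324 and 352 to 417 for T and NK cells, 141 to 192, 110 to 319 and 141 to 250.6 for myeloid cells, and 700 to 852, 637 to 679 and 482 to 728 for epithelial cells and fibroblasts, in the same order of groups. RNA came from whole cultures, so fewer cells with a transcript and less transcript per cell cannot be told apart.

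The first question was how the import genes stood when MYC was lowered. Most of them fell, in all 3 places. Of the 34 tested members 24 fell, 1 rose and 9 did not pass (limma, adjusted over all 11250 genes), against 26.2% of all tested genes that fell and 28.7% that rose (54.9% in either direction). The median log2 change of the members was -0.53, where that of all tested genes was 0.04. Among the outer membrane genes 7 of 10 fell (median -0.44), among the inner membrane genes 9 of 13 fell and 1 rose (median -0.52), and among the matrix genes 8 of 11 fell (median -0.63). In 8 members the fall was 1 or more on the log2 scale: TRAP1, TOMM5, TIMM13, TIMM50, GRPEL1, TIMM8B, PAM16 and TOMM40. The arrays of C-Myc-sh lay wholly below those of Ctrl-sh in 25 of the 34 members and wholly above them in 2, against 29.1% and 33.2% of all tested genes (62.2% in either direction).

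**Figure D1:**
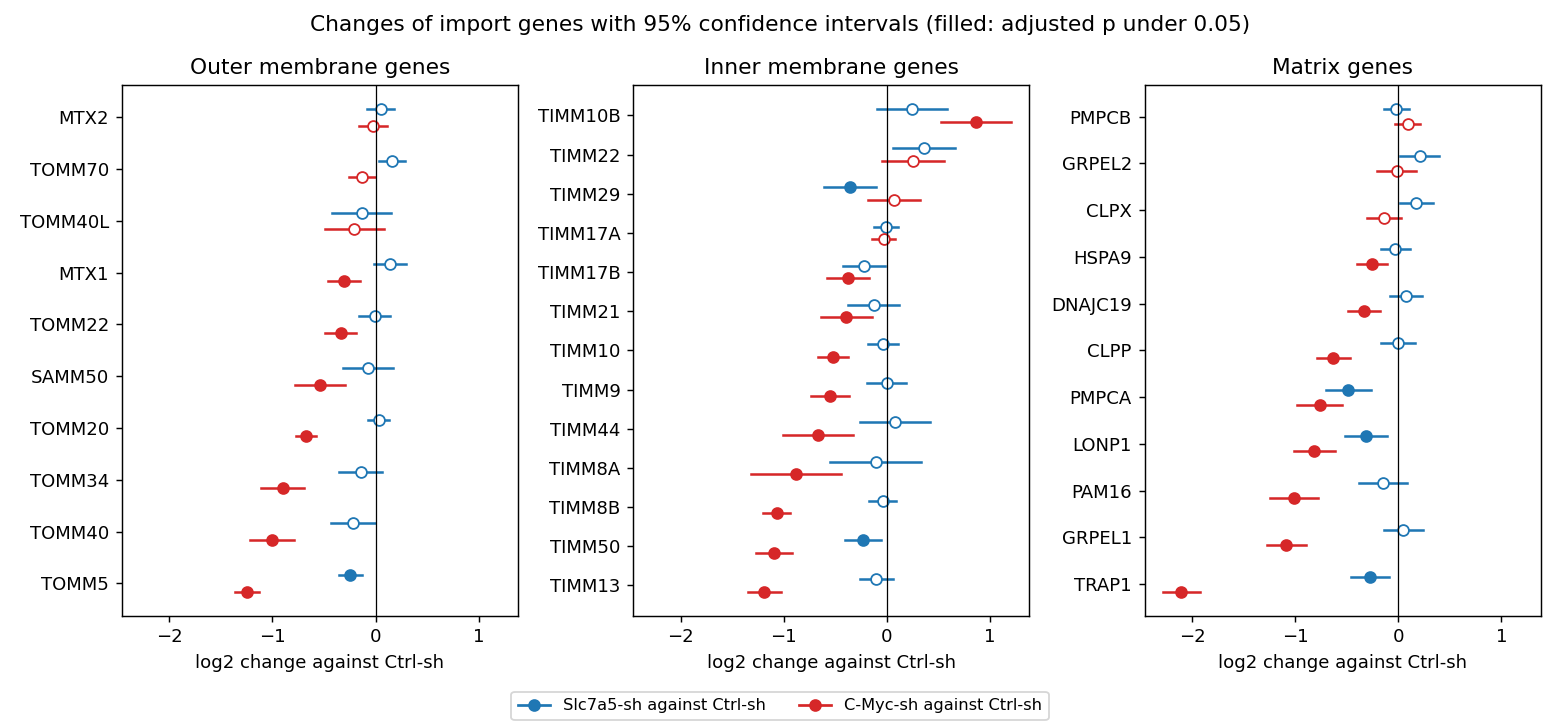
Log2 change against Ctrl-sh of each tested import gene (points) with its 95% confidence interval (lines), for Slc7a5-sh in blue and C-Myc-sh in red, in 3 panels for the outer membrane, inner membrane and matrix; filled points passed an adjusted p of 0.05. The red points lie left of 0 for most genes, out to -2.10 for TRAP1, with TIMM10B at 0.87 on the other side, while the blue points lie between -0.48 and 0.36.

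The spread within each place was wide, and the medians of the 3 places were close to each other. Relative to the Ctrl-sh mean of each gene, the outer membrane genes had medians of -0.35, -0.56 and -0.54 on the 3 C-Myc-sh arrays, the inner membrane genes -0.55, -0.51 and -0.49, and the matrix genes -0.66, -0.67 and -0.55. On the Slc7a5-sh arrays the medians lay between -0.14 and 0.05. The 3 C-Myc-sh arrays therefore gave the same picture, and the ranges of the outer and inner membrane overlapped.

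The binding site of MYC with its partner MAX is the E-box, whose core is CACGTG and reads the same on both strands. RefSeq promoter windows (GRCh38.p14; 250 bases before to 50 after a start site) were at hand for 33 of the 37 members. At least 1 window held the core in 5 of these 33 (15.2%), HSPA9, LONP1, TIMM10, TIMM8A and TOMM20, and in 8.77% of all 27305 genes with a window. All 5 fell in C-Myc-sh (median -0.67), and so did 15 of the 25 tested members whose windows lack these letters (median -0.34, with 1 that rose). The members without a window, TOMM5, GRPEL1, TIMM8B and CLPP, are in neither group and changed by -1.25, -1.09, -1.07 and -0.63. Counted from the start site, the match begins at 29 in TIMM8A and at -1 in TIMM10. The share of all genes with an E-box that fell was not computed. A match is only a run of letters and no sign of binding. The stretches below, in capitals at the E-box, show where it lies before the start site in the matrix motor HSP70, in the presequence receptor and in the matrix protease; they are read from the strand of the gene, which is the minus strand in each.
HSPA9, chr5:138575402-138575480, E-box from 19 bases before the start site: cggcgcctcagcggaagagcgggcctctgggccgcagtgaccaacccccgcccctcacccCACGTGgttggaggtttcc
TOMM20, chr1:235128940-235129065, E-box from 168 bases before the start site: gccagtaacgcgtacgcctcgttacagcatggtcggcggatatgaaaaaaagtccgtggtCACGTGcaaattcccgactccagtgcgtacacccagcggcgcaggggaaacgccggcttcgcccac
LONP1, chr19:5720341-5720370, E-box from 212 bases before 1 of its 2 listed start sites: ctcacagccttcCACGTGaccggaaaaggc
LONP1, chr19:5720178-5720207, E-box from 49 bases before the same start site: cgcgccgggcgtCACGTGcgtttcgcggcg
Of these 3 genes TOMM20 and LONP1 changed by -0.67 and -0.81 in C-Myc-sh, and HSPA9 by only -0.25.

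At the outer membrane the small TOM subunit TOMM5, which helps to hold the pore together, had the largest fall. It stood at 13.59, 13.62 and 13.51 in Ctrl-sh, 13.35, 13.28 and 13.35 in Slc7a5-sh and 12.26, 12.37 and 12.35 in C-Myc-sh. The 3 groups did not overlap and stepped down in that order, to 42.2% of the control signal in C-Myc-sh (log2 change -1.25, SE 0.05, limma adjusted p = 1.16e-10). Its second probe set gave -1.20. TOMM40, the pore itself, stood at 10.71, 10.74 and 10.75, then 10.69, 10.40 and 10.46, then 9.81, 9.56 and 9.83. It came to 49.95% of control in C-Myc-sh (-1.001, SE 0.10, limma adjusted p = 6.0e-07).

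TOMM20, the receptor for presequences, was at 14.03, 13.94 and 13.97 in Ctrl-sh, 14.03, 13.99 and 14.01 in Slc7a5-sh and 13.28, 13.32 and 13.32 in C-Myc-sh. On this probe set Ctrl-sh and Slc7a5-sh overlapped, and only C-Myc-sh lay apart, at 62.7% of control (-0.67, SE 0.05, limma adjusted p = 1.53e-08). The second TOMM20 probe set gave -0.41 in C-Myc-sh, -0.16 (SE 0.05) in Slc7a5-sh and -0.25 for C-Myc-sh against Slc7a5-sh. The central receptor TOMM22 fell less, by -0.34 (SE 0.07, limma adjusted p = 0.000849). TOMM70, the receptor for carrier proteins, was at 12.11, 12.06 and 12.13 in Ctrl-sh, 12.19, 12.24 and 12.34 in Slc7a5-sh and 11.94, 11.96 and 12.01 in C-Myc-sh. It was the TOM gene whose arrays lay above the controls in one knockdown and below them in the other, but neither change passed (0.16 and -0.13; limma adjusted p = 0.0578 and 0.0722), while the direct difference between the knockdowns did (-0.29, limma adjusted p = 0.000718). The difference of Slc7a5-sh from control did pass as higher with quantile normalization, a filter at the 75th percentile, the mean of its probe sets, or without Slc7a5-sh replicate 1 (limma adjusted p = 0.0333, 0.039, 0.0445 and 0.0491). That of C-Myc-sh passed as lower with the mean of its probe sets (-0.19, limma adjusted p = 0.00897) and without Slc7a5-sh replicate 3 (limma adjusted p = 0.0484). TOMM34, a cytosolic cochaperone that keeps precursors ready for import, fell to 53.5% of control (-0.90, SE 0.10, limma adjusted p = 1.66e-06).

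In the SAM complex, which inserts beta-barrel proteins, the core subunit SAMM50 and its partner MTX1 fell by -0.54 and -0.31 (limma adjusted p = 0.000932 and 0.00227), and MTX2 was at -0.03 (95% confidence interval -0.16 to 0.11). SAMM50 varied more between the C-Myc-sh arrays (11.75, 11.32 and 11.24) than between the controls (11.97, 11.98 and 11.97). All 3 C-Myc-sh arrays still lay below the controls.

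**Figure D2:**
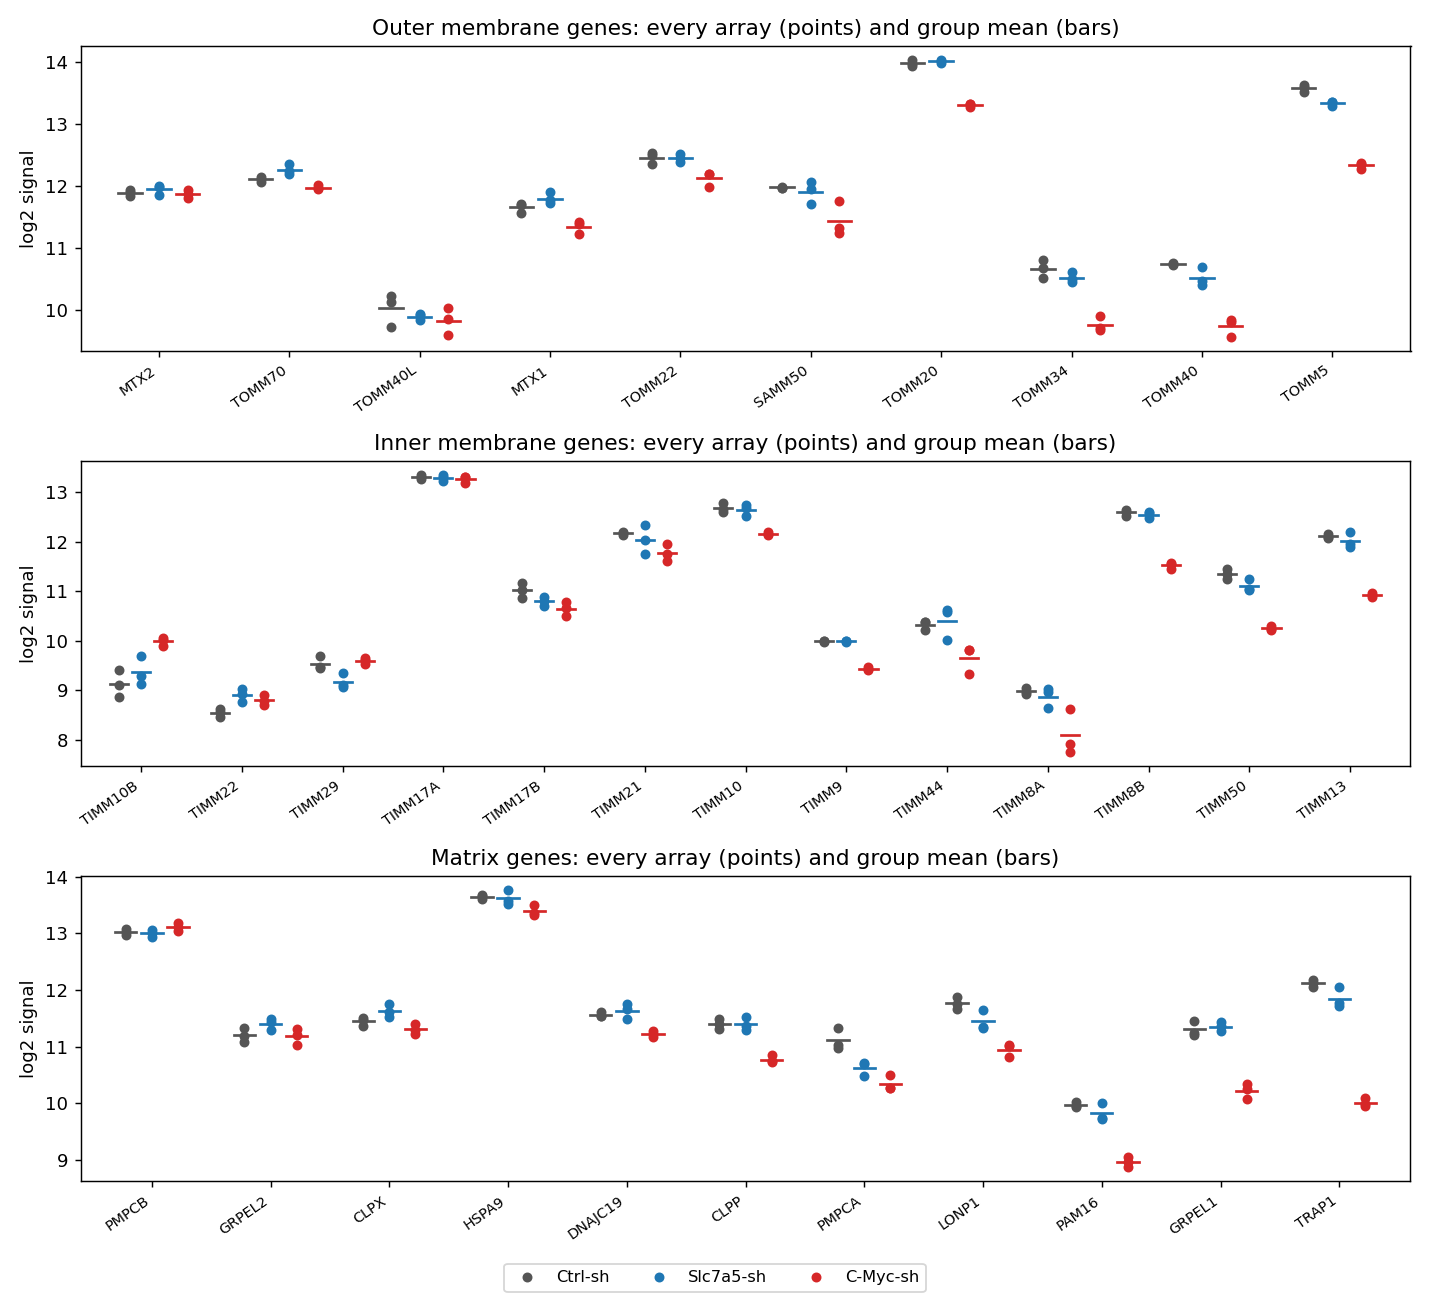
Log2 signal of each tested import gene on all 9 arrays (points; grey Ctrl-sh, blue Slc7a5-sh, red C-Myc-sh, 3 each) with the group means as bars, in panels for the outer membrane, inner membrane and matrix, ordered from the highest to the lowest change in C-Myc-sh. For TOMM5 the 3 groups step down without overlap, for TOMM20 only C-Myc-sh lies apart, and for TIMM17A, between 13.19 and 13.35, the groups lie on top of each other. Each gene is shown by its brightest probe set only.

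The small TIM chaperones escort hydrophobic precursors across the space between the membranes. In C-Myc-sh all 6 tested members changed, 5 down and 1 up. Of all tested genes 26.2% fell and 28.7% rose (54.9% in either direction). TIMM13 was at 12.08, 12.17 and 12.09 in Ctrl-sh, 11.90, 11.95 and 12.19 in Slc7a5-sh and 10.96, 10.92 and 10.89 in C-Myc-sh. Slc7a5-sh overlapped the controls, and C-Myc-sh came to 43.8% of them (-1.19, SE 0.07, limma adjusted p = 4.8e-09). TIMM8B fell by -1.07 (SE 0.06, limma adjusted p = 1.72e-09), and its second probe set gave -0.59. TIMM9 and TIMM10, the partners of one hexamer, fell by -0.55 and -0.52 (limma adjusted p = 7.25e-05 and 8.58e-06), but the second probe set of TIMM10 gave only -0.28. TIMM8A, the gene of a deafness and dystonia syndrome, fell by -0.88 with the largest SE of the members (0.21; limma adjusted p = 0.00203), its C-Myc-sh arrays reading 7.75, 7.92 and 8.63.

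TIMM10B, the small TIM that docks on the TIM22 complex, was the exception. It stood at 9.42, 9.11 and 8.86 in Ctrl-sh, 9.29, 9.13 and 9.69 in Slc7a5-sh and 9.89, 10.06 and 10.02 in C-Myc-sh. All C-Myc-sh arrays lay above all others, a rise to 182% of control (0.87, SE 0.16, limma adjusted p = 0.000285). The second TIMM10B probe set had a change of 0.40. The TIM22 complex itself, which inserts carriers into the inner membrane, had no gene that passed: TIMM22 was at 0.25 (95% confidence interval -0.04 to 0.55) and TIMM29 at 0.07 (-0.18 to 0.32). The C-Myc-sh arrays of TIMM22 all lay above the controls, and its other probe sets gave 0.20 and 0.27. TIMM22 passed as higher when the spread was moderated without a trend (limma adjusted p = 0.0483).

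In the TIM23 complex, the channel for presequence proteins, TIMM50, the receptor on its outer side, fell most. Its signals were 11.45, 11.35 and 11.25 in Ctrl-sh, 11.05, 11.03 and 11.25 in Slc7a5-sh and 10.29, 10.24 and 10.22 in C-Myc-sh. Only C-Myc-sh was clear of the controls, at 46.9% of them (-1.09, SE 0.08, limma adjusted p = 2.82e-08). TIMM21, which links the channel to the respiratory chain, and TIMM17B, a channel subunit, fell by -0.39 and -0.37 (limma adjusted p = 0.00954 and 0.00377). TIMM17A, the other form of that subunit, was at -0.03 (95% confidence interval -0.15 to 0.08), but its sign turned with quantile normalization (0.16, limma adjusted p = 0.00375). Its other probe sets above the filter level, at log2 means of 12.86 and 7.66, gave -0.15 (SE 0.07) and 0.28 (SE 0.24). TIMM44, which tethers the motor to the channel, fell by -0.67 (SE 0.16, limma adjusted p = 0.00223), with -0.25 from its second probe set, which was the one left when probe sets ending in _s_at and _x_at were dropped and did not pass then (limma adjusted p = 0.169).

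The import motor had 4 of 5 members lower in C-Myc-sh, against 26.2% of all tested genes (54.9% in either direction). GRPEL1, the nucleotide exchange factor of the matrix HSP70, was at 11.45, 11.22 and 11.25 in Ctrl-sh, 11.27, 11.43 and 11.36 in Slc7a5-sh and 10.25, 10.07 and 10.33 in C-Myc-sh. Slc7a5-sh and the controls overlapped, and C-Myc-sh came to 47.1% of control (-1.09, SE 0.09, limma adjusted p = 7.07e-08; second probe set -0.54). PAM16, which holds back the J-protein of the motor, came to 49.6% (-1.01, SE 0.11, limma adjusted p = 1.48e-06). DNAJC19, a J-protein of the inner membrane, fell by -0.34 (limma adjusted p = 0.00113; second probe set -0.20). HSPA9, the matrix HSP70 mortalin, was at 13.67, 13.60 and 13.67 in Ctrl-sh, 13.76, 13.53 and 13.56 in Slc7a5-sh and 13.32, 13.36 and 13.50 in C-Myc-sh. The C-Myc-sh arrays lay just below the controls (-0.25, SE 0.07, limma adjusted p = 0.00447), and the change was -0.03 with quantile normalization (limma adjusted p = 0.653). Of its other 3 probe sets above the filter level, those at log2 means of 13.07 and 10.69 gave -0.31 and -0.65, and the one at 6.66 gave 0.55.

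The presequence peptidase is a pair of different subunits, and they parted. PMPCA stood at 11.03, 10.98 and 11.32 in Ctrl-sh, 10.70, 10.49 and 10.69 in Slc7a5-sh and 10.28, 10.27 and 10.50 in C-Myc-sh, lower in both knockdowns without overlap with the controls (C-Myc-sh: -0.76, SE 0.10, limma adjusted p = 1.55e-05). PMPCB, the catalytic subunit, stayed between 12.94 and 13.18 on all 9 arrays (0.09, 95% confidence interval -0.03 to 0.21), and passed as higher with quantile normalization (0.26, limma adjusted p = 0.000308).

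TRAP1, the HSP90 of mitochondria, had the largest change of all members. Its signals were 12.12, 12.17 and 12.06 in Ctrl-sh, 11.71, 11.77 and 12.05 in Slc7a5-sh and 10.10, 9.99 and 9.96 in C-Myc-sh. C-Myc-sh was at 23.3% of control (-2.10, SE 0.09, limma adjusted p = 5.97e-11), and 73 of the 11250 tested genes (0.649%) had a lower change. Averaged with its second probe set, which lies below the filter level, the change was -0.51 and did not pass (limma adjusted p = 0.421). Of the matrix proteases, LONP1 came to 56.9% of control (-0.81, SE 0.09, limma adjusted p = 3.0e-06) and CLPP, the peptidase of the ClpXP complex, to 64.7% (-0.63, SE 0.08, limma adjusted p = 5.62e-06). CLPX, the unfoldase of that complex, was at -0.14 (95% confidence interval -0.30 to 0.02), but its second probe set gave -0.38 and the mean of both passed as lower (-0.26, limma adjusted p = 0.00276).

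Leaving out single arrays ended no call among these members in C-Myc-sh. Averaging the probe sets of a gene, some of them below the filter level, ended that of SAMM50 (-0.18), TIMM13 (-1.31), TIMM17B (-0.35), TIMM50 (-0.13) and HSPA9 (-0.16), besides TRAP1, and turned TIMM8A to 0.19, which did not pass. TIMM21 did not pass when the spread was moderated without a trend (limma adjusted p = 0.0585).

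Pairs of related genes were compared within arrays, as the change of one gene less that of the other, which does not depend on the scale of an array. With 3 arrays against 3 the exact permutation test cannot go below 0.10, and over the 15 comparisons of 5 pairs the smallest Benjamini-Hochberg adjusted value was 0.188, so none could pass. GRPEL1 and its stress-linked relative GRPEL2 differed most in C-Myc-sh: GRPEL1 changed by -1.09 and GRPEL2 by -0.01 (difference -1.07, 95% confidence interval -1.62 to -0.53; exact two-sided permutation p = 0.10). GRPEL2 stood at 11.08, 11.34 and 11.19 in Ctrl-sh and 11.31, 11.21 and 11.04 in C-Myc-sh, so its groups overlapped. TOMM40 and TOMM40L, a second form of the pore, differed by -0.80 (-1.41 to -0.18; exact permutation p = 0.10), with TOMM40L at 10.12, 10.22 and 9.73 in Ctrl-sh and 9.59, 9.85 and 10.02 in C-Myc-sh. MTX1 and MTX2 differed by -0.28 (-0.54 to -0.03; exact permutation p = 0.10). TIMM17A and TIMM17B differed by 0.34 (-0.0005 to 0.68; exact permutation p = 0.10), and by 0.58 with quantile normalization. Between TIMM8A and TIMM8B, which both fell, the difference was 0.19 with a wide interval (-0.53 to 0.91; exact permutation p = 0.80).

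**Figure D3:**
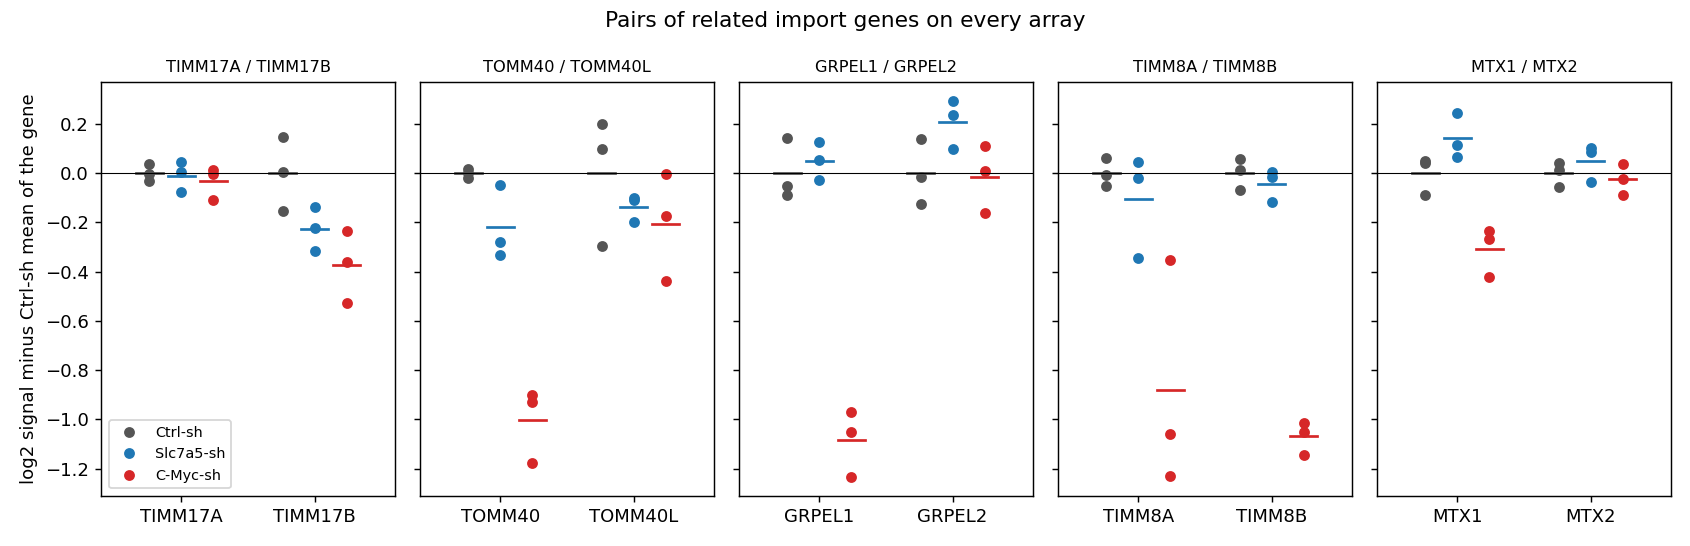
Log2 signal on each array less the Ctrl-sh mean of the gene, for 5 pairs of related import genes (grey Ctrl-sh, blue Slc7a5-sh, red C-Myc-sh; points are arrays, bars group means). The C-Myc-sh points of TOMM40 and GRPEL1 lie near -1 while those of TOMM40L and GRPEL2 overlap the controls, and both TIMM8 genes are low.

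The second question was how they stood under the shRNA for SLC7A5. Few import genes changed, and those that did fell a little. Of the 34 tested members 6 fell and 0 rose (limma; 28 did not pass, of which 4, named below, had an unadjusted p under 0.05 and a higher signal), against 11% of all tested genes that fell and 14.3% that rose (25.3% in either direction). The arrays lay wholly below the controls in 6 members and wholly above in 4, against 18% and 21.8% of all tested genes (39.8% in either direction). The median change was -0.03, beside 0.03 over all tested genes. The 6 were PMPCA, TIMM29, LONP1, TRAP1, TOMM5 and TIMM50. TOMM40 and TIMM17B did not pass (-0.22 and -0.23, limma adjusted p = 0.122 and 0.0991) but had an unadjusted p under 0.05 with a lower signal. TIMM17B passed as lower without Ctrl-sh replicate 3 (-0.30, limma adjusted p = 0.0498). Leaving out single arrays gave between 2 and 6 that fell. Only PMPCA and TOMM5 passed under all 18 alternatives tried.

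PMPCA, whose arrays are given above, came to 71.5% of control in Slc7a5-sh (-0.48, SE 0.10, limma adjusted p = 0.00323), and TOMM5 to 84.4% (-0.24, SE 0.05, limma adjusted p = 0.00407). LONP1 was at 11.66, 11.88 and 11.75 in Ctrl-sh and 11.35, 11.34 and 11.66 in Slc7a5-sh, so that its groups met at 11.66 without crossing (-0.31, limma adjusted p = 0.0233). It lost its call without Ctrl-sh replicate 2 (-0.26) or 3 (-0.32) or Slc7a5-sh replicate 1 (-0.27) or 2 (-0.26). TRAP1 changed by -0.27 (limma adjusted p = 0.0291) and lost its call without replicate 1 or 2 of Ctrl-sh (-0.27 and -0.25) or of Slc7a5-sh (-0.21 and -0.24). TIMM50, whose groups overlapped, changed by -0.23 (limma adjusted p = 0.0465). It lost its call without replicate 1 or 2 of Ctrl-sh (-0.18 and -0.23), without replicate 1 or 2 of Slc7a5-sh (-0.20 and -0.19) or without any 1 of the C-Myc-sh arrays (-0.23), as well as with the replicate block (-0.23, limma adjusted p = 0.0629). Moderation without a trend ended the calls of LONP1, TRAP1 and TIMM50 (limma adjusted p = 0.0899, 0.0912 and 0.0901). That of TIMM50 was also lost with quantile normalization, without a filter and with only the 6 arrays compared (limma adjusted p = 0.0577, 0.0693 and 0.0597). When the probe sets of each gene were averaged, TIMM50 and TRAP1 turned to 0.15 and 0.07, which did not pass.

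TIMM29, a subunit of the TIM22 complex found in animals, went its own way between the knockdowns. It stood at 9.44, 9.46 and 9.68 in Ctrl-sh, 9.34, 9.06 and 9.11 in Slc7a5-sh and 9.66, 9.53 and 9.60 in C-Myc-sh. Slc7a5-sh was the low group, at 78.0% of control (-0.36, SE 0.12, limma adjusted p = 0.0372), while C-Myc-sh overlapped the controls. The call was lost without replicate 1, 2 or 3 of Ctrl-sh (-0.40, -0.39 and -0.28) and without replicate 2 or 3 of Slc7a5-sh (-0.30 and -0.33). It was also lost without a filter and with only the 6 arrays compared (limma adjusted p = 0.0556 and 0.0586). The members with the highest values in Slc7a5-sh were TIMM22 (0.36, limma adjusted p = 0.0755), TIMM10B (0.25, limma adjusted p = 0.286), GRPEL2 (0.21, limma adjusted p = 0.0983), CLPX (0.18, limma adjusted p = 0.105) and TOMM70 (0.16, limma adjusted p = 0.0578), none of which passed. Those of the 5 with an unadjusted p under 0.05 were TIMM22, GRPEL2, CLPX and TOMM70. With moderation without a trend TIMM22 passed as higher in Slc7a5-sh (limma adjusted p = 0.0323). The second probe sets of GRPEL2 and CLPX, above the filter level, went the other way (-0.22 and -0.13). Those of TIMM10B (0.29), TOMM70 (0.18) and TIMM22 (0.45 and 0.10) kept the sign.

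**Figure D4:**
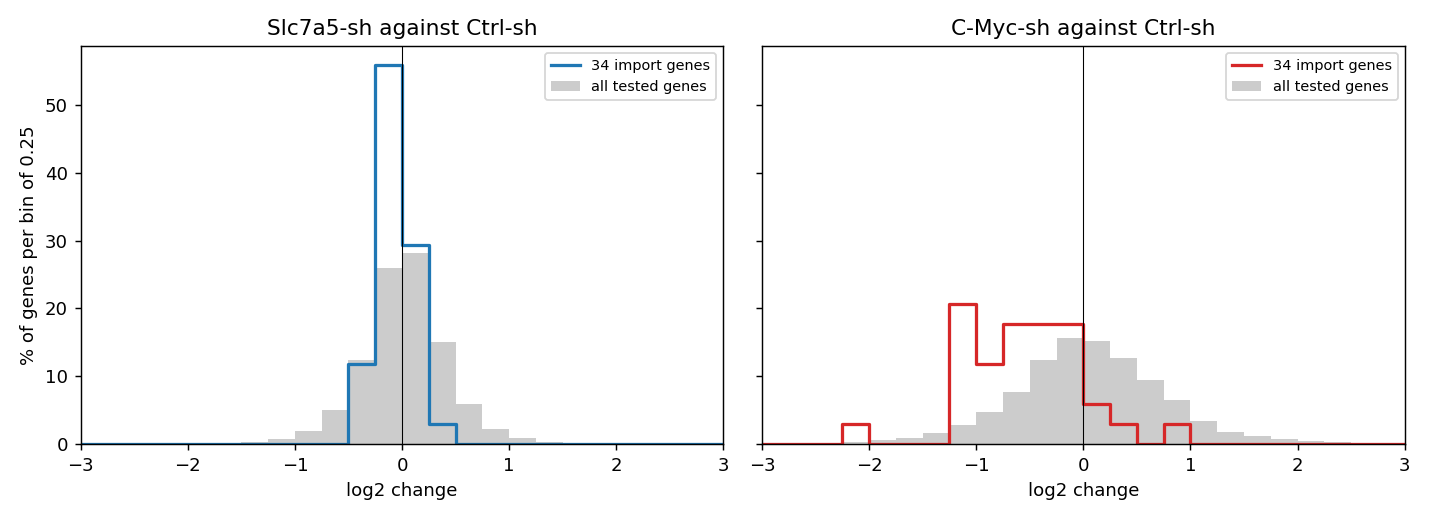
Share of genes in bins of log2 change 0.25 wide, for all 11250 tested genes (grey bars) and the 34 import genes (line), in Slc7a5-sh (left) and C-Myc-sh (right) against Ctrl-sh; the axis is limited to changes between -3 and 3. On the left the import genes lie around 0 between -0.48 and 0.36, and on the right they lie mostly below 0 with a median of -0.53, where all genes have 0.04.

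Set directly against each other, the knockdowns differed in most import genes. In C-Myc-sh 25 of the 34 members were lower than in Slc7a5-sh and 2 were higher, with 7 that did not pass (limma), against 25.1% lower and 24.4% higher among all tested genes (49.5% in either direction). The arrays did not overlap, with C-Myc-sh lower, in 22 members and, with it higher, in 2, against 27.7% and 28.8% of all tested genes (56.5% in either direction). The median difference was -0.46, beside 0.03 over all tested genes. TRAP1 (-1.83, SE 0.09, limma adjusted p = 4.06e-10), GRPEL1 (-1.14), TIMM13 (-1.09), TIMM8B (-1.03) and TOMM5 (-1.002) had the largest differences, and each had no overlap between its groups. With the mean of all probe sets TRAP1 (-0.58, limma adjusted p = 0.381) and TIMM13 (-0.012, limma adjusted p = 0.988) did not pass here, nor did SAMM50 (-0.33), TIMM8A (-0.018) or TIMM50 (-0.27). The 2 that were higher were TIMM10B (0.62, SE 0.16, limma adjusted p = 0.00447) and TIMM29 (0.43, SE 0.12, limma adjusted p = 0.00707). The second TIMM10B probe set gave 0.11, and the mean of both did not pass (0.36, limma adjusted p = 0.0605). PMPCA, lower in both knockdowns, differed least among those that passed in all 3 comparisons (-0.28, limma adjusted p = 0.0357). That call was lost with the mean of all probe sets (limma adjusted p = 0.0538), with moderation without a trend (limma adjusted p = 0.0895), without replicate 1 or 3 of Slc7a5-sh (-0.24 and -0.25) and without replicate 1 or 2 of C-Myc-sh (-0.24 in both). GRPEL2 (-0.22, limma adjusted p = 0.0479) lost its call with the mean of its probe sets (-0.11) and, among other settings, on leaving out Ctrl-sh replicate 3 (-0.22), Slc7a5-sh replicate 1 or 2 (-0.21 and -0.18) or C-Myc-sh replicate 2 or 3 (-0.24 and -0.15), and HSPA9 (-0.23, limma adjusted p = 0.0104) without Slc7a5-sh replicate 1 (-0.15). The HSPA9 call was also lost with quantile normalization (-0.032, limma adjusted p = 0.691), with the mean of its probe sets (-0.051, limma adjusted p = 0.74) and with moderation without a trend (limma adjusted p = 0.0578). The 2 knockdowns share their control arrays, so their own changes are given side by side only. LONP1, PMPCA, TIMM50, TOMM5 and TRAP1 fell in both. MTX2, PMPCB, TIMM17A, TIMM22 and TOMM40L passed in none of the 3 comparisons. The share of all tested genes with either pattern was not computed, so these names say nothing of the members as a set.

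Other genes of the same tasks, in 7 lists of 60 genes of which 57 were tested, had 32 lower and 11 higher in C-Myc-sh and 9 lower and 7 higher in Slc7a5-sh (limma), with medians of -0.30 and -0.03. Together 75.4% of them passed in C-Myc-sh and 28.1% in Slc7a5-sh, where 54.9% and 25.3% of all tested genes did, so the share in Slc7a5-sh was near that of all genes. All 3 tested genes of the disulfide relay, which traps small proteins between the membranes, had lower values in C-Myc-sh, and 2 passed: the oxidoreductase CHCHD4 (-0.97, limma adjusted p = 1.64e-08) and its partner AIFM1 (-0.89, limma adjusted p = 1.94e-07). These 2 are 66.7% of the 3, beside 54.9% of all tested genes. Of 6 matrix chaperones 4 fell and 2 rose in C-Myc-sh, which is 100% of them. The co-chaperonin HSPE1 fell by -0.92 (limma adjusted p = 5.56e-09) and the J-protein DNAJA3 by -0.43, while DNLZ, the escort protein of mortalin, rose by 0.54 in C-Myc-sh and by 0.70 in Slc7a5-sh (limma adjusted p = 0.000292 and 0.000175).

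Among 9 tested inner membrane proteases and scaffolds 5 fell and 2 rose in C-Myc-sh, or 77.8% beside 54.9% of all tested genes. The prohibitins PHB1 and PHB2 were at -0.74 and -0.57 (limma adjusted p = 6.63e-08 and 3.31e-06). None of the 9 tested genes of this list passed in Slc7a5-sh (limma), where 25.3% of all tested genes did. Of 14 insertase and MICOS genes, the latter of which shape the cristae, 10 fell and 1 rose in C-Myc-sh. These were 78.6%, beside 54.9% of all tested genes, and among them were MICOS13 (-0.84), IMMT (-0.66) and BCS1L (-0.53). BCS1L, which assembles complex III, rose in Slc7a5-sh (0.46, limma adjusted p = 0.00292), so that the knockdowns stood on opposite sides of the controls and differed by -0.99 (limma adjusted p = 7.23e-07). Presequence trimming was divided: MIPEP fell by -0.59 and -0.77 in C-Myc-sh and Slc7a5-sh, and XPNPEP3 rose by 0.74 and 0.37 (XPNPEP3 turned to -0.21 in Slc7a5-sh with the mean of its probe sets, which did not pass).

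Of 9 tested regulators of mitochondrial biogenesis 4 fell and 2 rose in C-Myc-sh, or 66.7% in either direction beside the 54.9% of all tested genes. PPRC1, a PGC-1-related coactivator, fell by -0.70 (limma adjusted p = 3.35e-05) while PPARGC1B, its relative, rose by 0.99 (limma adjusted p = 4.89e-06). TFAM, which packs mitochondrial DNA, was at -0.09 in C-Myc-sh (limma adjusted p = 0.238) and rose by 0.18 in Slc7a5-sh (limma adjusted p = 0.0353). TFB1M fell in both knockdowns (-0.73 and -0.58) but stood at 0.13 and 0.40, without passing, when probe sets ending in _s_at and _x_at were left out. The last list held carriers and porins, cargo of the TIM22 and SAM routes, and CS, the citrate synthase of the matrix. Among the 11 of them that were tested 5 fell and 2 rose in C-Myc-sh. These were 63.6% in either direction, near the 54.9% of all tested genes. SLC25A11 changed by -0.89, VDAC1 by -0.52 and SLC25A13 by 0.54. CS was at -0.38 and did not pass (limma adjusted p = 0.0595).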

How the data were processed

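The deposited log2 signals of 54613 probe sets on 9 arrays were made by the authors with MAS5, per the submitters' processing notes, which state no version. Read from the values, each array had been scaled to a linear trimmed mean of 497, so a change in total RNA per cell does not show. Platform annotation gave the gene names, and only probe sets with exactly 1 symbol entered. Each gene was read by its brightest such probe set, by the mean of all arrays, and 15 of the 34 tested members were then read by a probe set ending in _s_at or _x_at, which can bind related transcripts. Genes whose mean reached the median of all probe-set means (5.77) were tested with limma 3.58.1 in R 4.3.3 (3 group means over 9 arrays, eBayes with trend, two-sided, Benjamini-Hochberg over 11250 genes, called under 0.05), which was tested on simulated data. The labels give no batch. Intervals are at 95%.

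All members are named, as are SLC7A5, MYC and, of each other mitochondrial list, the 2 called genes with the smallest p in a comparison, of which some are printed. The members and lists were chosen with earlier results of these data known. Correlations between the deviations of same-numbered arrays lay between -0.02 and 0.02, so no shared effect of the number was seen. This cannot exclude that same-numbered arrays were made together. The number of arrays limits the precision.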

Additional observations from a re-analysis of the deposited data

How the results depend on the processing

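Results were recomputed with 1 choice changed at a time, and the cause of a change was not tested. With the replicate number as a replicate block 24 members were lower in C-Myc-sh and 5 in Slc7a5-sh. In the direct comparison of C-Myc-sh with Slc7a5-sh 26 were lower. The labels do not say whether the numbers pair the arrays. Without single arrays, 2 to 6 members were lower and 0 to 1 higher in Slc7a5-sh, as were 4 to 10 of the other listed genes lower. The median changes then lay at -0.55 to -0.47 (inner membrane) and -0.52 to -0.40 (outer membrane) in C-Myc-sh, and in the direct comparison at -0.55 to -0.44 (inner membrane), -0.48 to -0.37 (matrix) and -0.55 to -0.38 (outer membrane).

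Quantile normalization gave 1, 3 and 4 higher members in Slc7a5-sh, C-Myc-sh and the direct comparison, inner membrane medians of -0.415 and -0.38 in the last pair, TIMM17A at 0.16 and 0.12 there, and TIMM17A less TIMM17B at 0.58 and 0.306. Without a filter the inner membrane medians were -0.46 and -0.38, and with a filter at the 75th percentile -0.459 and -0.38, with 1 higher member in Slc7a5-sh. Moderation without a trend gave 3 lower and 1 higher member in Slc7a5-sh, 4 lower genes of the other lists there, and 2 higher members in C-Myc-sh.

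Averaging all probe sets of a gene lowered the calls over all genes in Slc7a5-sh from 2843 to 1581. It gave 1 higher member each in Slc7a5-sh and the direct comparison, and 4 and 5 higher genes of the other lists. In Slc7a5-sh TIMM50 was then at 0.15, TRAP1 at 0.066 and XPNPEP3 at -0.21, and the pair differences were 0.56 (TIMM17A less TIMM17B), 0.071 (GRPEL1 less GRPEL2) and 0.28 (TIMM8A less TIMM8B). In C-Myc-sh the medians were -0.26, -0.35 and -0.51 (outer membrane, inner membrane, matrix), TIMM8A was at 0.19, and the same pair differences were 0.54, -0.69 and 1.01. In the direct comparison the medians were -0.061 (inner membrane) and -0.28 (matrix), and TIMM17A less TIMM17B and TIMM8A less TIMM8B were -0.018 and 0.73.

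Without probe sets ending in _s_at and _x_at, fewer genes could be tested. The other lists then had 3 higher and 5 lower genes in Slc7a5-sh, 16 lower in C-Myc-sh and 12 lower in the direct comparison. The outer membrane medians were -0.14, -0.34 and -0.30 in these comparisons, and those of the inner membrane -0.31 and -0.33 in the last pair. TFB1M was at 0.40 and 0.13 in the knockdowns of SLC7A5 and MYC. TIMM17A less TIMM17B was 0.37, 0.65 and 0.28, and TIMM8A less TIMM8B was -0.29 in C-Myc-sh and -0.30 in the direct comparison.

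Some members passed under every alternative in which they could be tested. These were 16 of the 25 called in C-Myc-sh, 2 of the 6 in Slc7a5-sh and 18 of the 27 in the direct comparison. Of those in C-Myc-sh and the direct comparison, LONP1, MTX1, TOMM20, TOMM22 and TOMM40 had only probe sets ending in _s_at. They could not be tested without such probe sets. With 3 arrays a group, small changes cannot be told from the spread between arrays.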
